A study of Mus musculus with 26 samples.

Results

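Dmd, Utrn and Dag1 were followed across 13 groups of mice in a series of 26 arrays with 2 channels each. They were found as the rows of the deposited table whose probe was annotated to one of the 3 genes, which gave 8 of 16416 rows and 3 of 6540 measured genes. The 8 rows came from 4 probes, each spotted as a duplicate pair: 2 for Dmd and 1 each for Utrn and Dag1. Each group had 2 RNA samples, and each of the 26 RNA samples was on 2 arrays, once per channel, with no common reference. Wild type mice came as 2 strains, bl6 and bl10. Dystrophin was the protein affected in mdx and mdx3cv, a sarcoglycan in sgca, sgcb, sgcb2 and sgcd, dysferlin in dysf and sjl, and sarcospan in sspn. The group hDMD carries the human dystrophin gene. A further sarcoglycan-deficient line was part of every fit and of the pool of 5 sarcoglycan lines, and its own values are not reported here. The genotype of each line was read from its name, and that of sgcb2 from its likeness to sgcb. The labels state neither tissue, age, sex nor background strain, nor whether hDMD mice also carry the mouse gene intact. Strain and missing protein therefore cannot be told apart in any comparison with a line, and fewer cells of a type cannot be told apart from less RNA per cell.

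Dystrophin is a long rod-like protein under the muscle fibre membrane that ties cytoskeletal actin to a complex of membrane proteins. Dag1 encodes dystroglycan, which is cleaved into a membrane-spanning beta subunit that binds dystrophin and an outer alpha subunit that binds laminin in the basement membrane. Utrn encodes utrophin, the autosomal relative of dystrophin, which in adult muscle sits mainly at the neuromuscular junction and can bind the same complex. The mdx line carries a point mutation in Dmd that makes a premature stop codon, and mdx3cv a point mutation that disturbs splicing nearer the 3′ end. Neither line lacks the gene itself, so the Dmd signal of a probe is not a check of their labels.

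Dmd is read from several promoters, which give the full-length protein and a set of shorter ones, and its 2 probes are described apart as well as together. The 250 bases before 2 annotated starts of Dmd are given to show these promoters, from RefSeq on GRCm38.p6, both on the plus strand. The starts lie 2099 kb apart on chromosome X, at chrX:82948620-82948869 and chrX:85048045-85048294. Capitals mark the letters TATAAA or GGGCGG on either strand.
Dmd, upstream start: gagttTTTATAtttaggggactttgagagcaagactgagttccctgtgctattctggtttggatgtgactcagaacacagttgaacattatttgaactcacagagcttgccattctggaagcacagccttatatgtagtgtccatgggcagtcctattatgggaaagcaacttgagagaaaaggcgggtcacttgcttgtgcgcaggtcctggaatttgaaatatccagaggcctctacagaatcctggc
Dmd, downstream start: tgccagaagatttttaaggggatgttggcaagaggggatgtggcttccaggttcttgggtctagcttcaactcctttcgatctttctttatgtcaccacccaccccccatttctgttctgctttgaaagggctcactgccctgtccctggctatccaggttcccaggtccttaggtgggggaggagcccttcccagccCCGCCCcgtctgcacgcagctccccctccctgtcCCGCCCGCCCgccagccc
The upstream window held 1 match to TATAAA and 0 to GGGCGG, with a GC content of 45.2%. The downstream window held 0 matches to TATAAA and 3 to GGGCGG, of which 2 overlap, with a GC content of 60%. Of 32851 promoter windows, 12.4% held TATAAA and 32.7% held GGGCGG on either strand. The transcripts that each Dmd probe detects are not named in the table, so neither window is tied to a probe.

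Levels are given on the log2 scale relative to the mean of the 13 groups of the same gene, from a fit to all arrays. The level of a sample is the mean over its 2 arrays. Levels of different genes cannot be set against each other on these arrays. All signs rest on channel 1 over channel 2. That direction is likely but not stated. It was read from 7 pairs of a line and the gene of its affected protein, over 5 genes other than Dmd, with loss of the transcript assumed. With it, 5 of 7 were lower than wild type in their own line, and with the reverse 2 of 7. Of these, 2 against 0 had an unadjusted p under 0.05 in limma's test: Sgca in sgca (-4.33) and Sspn in sspn (-1.21). The 2 pairs on the other side were Dysf, at 0.55 in dysf and 0.76 in sjl. Differences are tested with limma and adjusted by Benjamini-Hochberg over 6540 genes, with a threshold of 0.05.

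None of the 3 genes passed the threshold in any of 18 comparisons. Of the 54 tests, 0 had an adjusted p under 0.05 and 5 had an unadjusted p under 0.05 (9.26%). The lowest adjusted p in limma's test was 0.283. Among all genes the share with an unadjusted p under 0.05 ran from 2.09% to 21.9% over the same comparisons, and the share passing the threshold from 0% to 7.42%. The share for the 3 genes lies inside the range for genes at large. The spread of the 13 group levels put Dmd at percentile 29.2, Utrn at 62.0 and Dag1 at 44.9 of all genes.

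**Figure D1:**
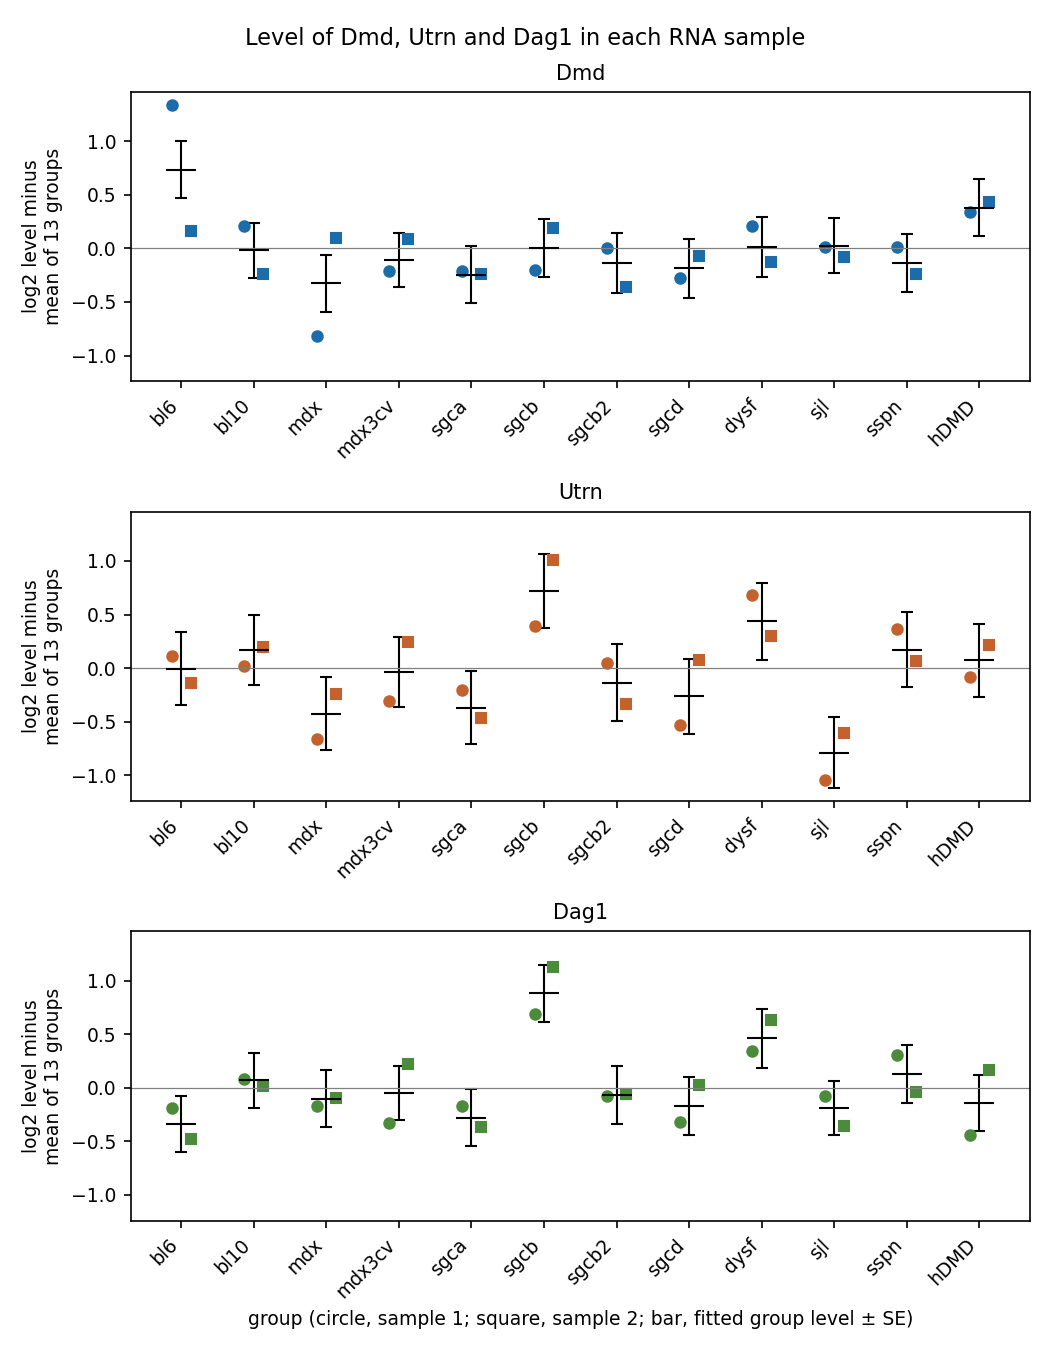
Level of Dmd, Utrn and Dag1 (log2, minus the mean of 13 groups) in each RNA sample of 12 groups. Circles are sample 1, squares sample 2, and bars the fitted group level ± SE. Dmd is highest in bl6 sample 1 (1.34) and lowest in mdx sample 1 (-0.82), Utrn is lowest in sjl, and Utrn and Dag1 are highest in sgcb.

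Dmd was measured first in the lines with a mutated dystrophin gene. Its level was -0.82 and 0.10 in the 2 mdx samples and -0.21 and 0.09 in the 2 mdx3cv samples. In wild type it was 1.34 and 0.16 in bl6 and 0.21 and -0.24 in bl10. One bl6 sample stood well above the other 3 wild type samples and 1 mdx sample below the other 3 dystrophin-deficient ones. These samples, bl6 sample 1 and mdx sample 1, shared 1 array, which enters both levels, so these extremes are not independent. The remaining samples of both groups overlapped.

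The mean of mdx and mdx3cv lay 0.57 ± 0.26 (SE, n = 4 against 4) below wild type on the log2 scale, a 1.49-fold difference with a 95% interval of the log2 value from -1.12 to -0.03. In limma's test the unadjusted p was 0.04 and the adjusted p 0.318. In this comparison 0.795% of all genes passed the threshold. The difference rested on few samples. It was -0.04 without bl6 sample 1 and -0.87 without mdx sample 2. Against bl10 alone it was -0.20 (adjusted p = 0.997 in limma's test) and against bl6 alone -0.95 (adjusted p = 0.11). Leaving out a sample removes both of its arrays. Since bl6 sample 1 and mdx sample 1 shared 1 array, the fit without either also lost data of the other. Taken singly, mdx differed from wild type by -0.68 ± 0.31 (adjusted p = 0.337 in limma's test, 1.33% of genes passing) and by -0.02 without mdx sample 1. The line mdx3cv differed from wild type by -0.46 ± 0.33 (adjusted p = 0.683, 0% passing, with 566 genes at an unadjusted p under 0.05). The 2 lines differed from each other in Dmd by 0.22 ± 0.37 (0.0153% passing), with an interval from -0.55 to 0.98.

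Dmd also lay apart in the wild type strains, whose mean is the reference for each line. The level in bl10 was 0.75 ± 0.35 below that in bl6 (adjusted p = 0.61 in limma's test, 0.0153% of genes passing). That value was -0.18 without bl6 sample 1 and -1.69 without bl6 sample 2.

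The 10 sarcoglycan-deficient samples had Dmd levels from -0.36 to 0.23, with a median of -0.21. All 10 lay below bl6 sample 1, and the group overlapped with the other 3 wild type samples. Their mean was 0.47 ± 0.24 (SE, n = 10 against 4) below wild type, with an adjusted p of 0.283 in limma's test and 6.77% of genes passing. Without bl6 sample 1 it was -0.08, and against bl10 alone -0.10. By line, the difference from wild type was -0.60 in sgca, -0.35 in sgcb, -0.49 in sgcb2 and -0.54 in sgcd, with SEs from 0.32 to 0.38 and adjusted p-values from 0.287 to 0.749. Without bl6 sample 1 these values were -0.29, 0.09, -0.11 and -0.16. The share of genes passing was 7.42% in sgca, 0.107% in sgcb, 0.199% in sgcb2 and 2.13% in sgcd. These lines share the wild type samples with mdx and mdx3cv. Set directly against the sarcoglycan lines, mdx and mdx3cv differed in Dmd by -0.10 ± 0.24 (adjusted p = 1 in limma's test, 0.0153% passing), with an interval from -0.61 to 0.40. Against the mean of the other 11 groups they differed by -0.26 ± 0.22 (adjusted p = 0.998 in limma's test). There 0% of genes passed and 200 had an unadjusted p under 0.05.

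Dmd was -0.34 ± 0.29 against wild type in the dysferlin-deficient lines (0.0459% of genes passing) and -0.49 ± 0.38 in sspn (0.107% passing). Without bl6 sample 1 these were 0.14 and -0.04, and against bl10 alone 0.04 and -0.12. Its levels were 0.21 and -0.13 in dysf, 0.02 and -0.08 in sjl and 0.01 and -0.24 in sspn. All 6 values lie within the range of the wild type samples.

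The line hDMD had the second highest Dmd level after bl6, at 0.34 and 0.44 in its 2 samples. Both lay above every dystrophin-deficient sample. The difference of hDMD from mdx and mdx3cv was 0.60 ± 0.34 (SE, n = 2 against 4), with an interval from -0.11 to 1.31 and an adjusted p of 0.49 in limma's test. It was 0.31 without mdx sample 1 and 0.91 without mdx sample 2. In that comparison 0.596% of genes passed. Against wild type, hDMD differed by 0.02 ± 0.37 (0.0153% passing), with an interval from -0.75 to 0.79, and the sign changed in 13 of 26 fits that each left out 1 sample. Whether the mouse probes bind the human transcript was not tested.

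In the order of the 13 Dmd levels, from mdx (-0.33 ± 0.27) to hDMD (0.38 ± 0.26) and bl6 (0.73 ± 0.27), no group differed from its neighbour beyond the spread. The same held for the orders of Utrn and Dag1, with unadjusted p-values in limma's test from 0.228 to 1 over the pairs of neighbours. Sorting by level makes neighbours the closest groups, so these tests cannot show whether groups further apart differ.

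**Figure D2:**
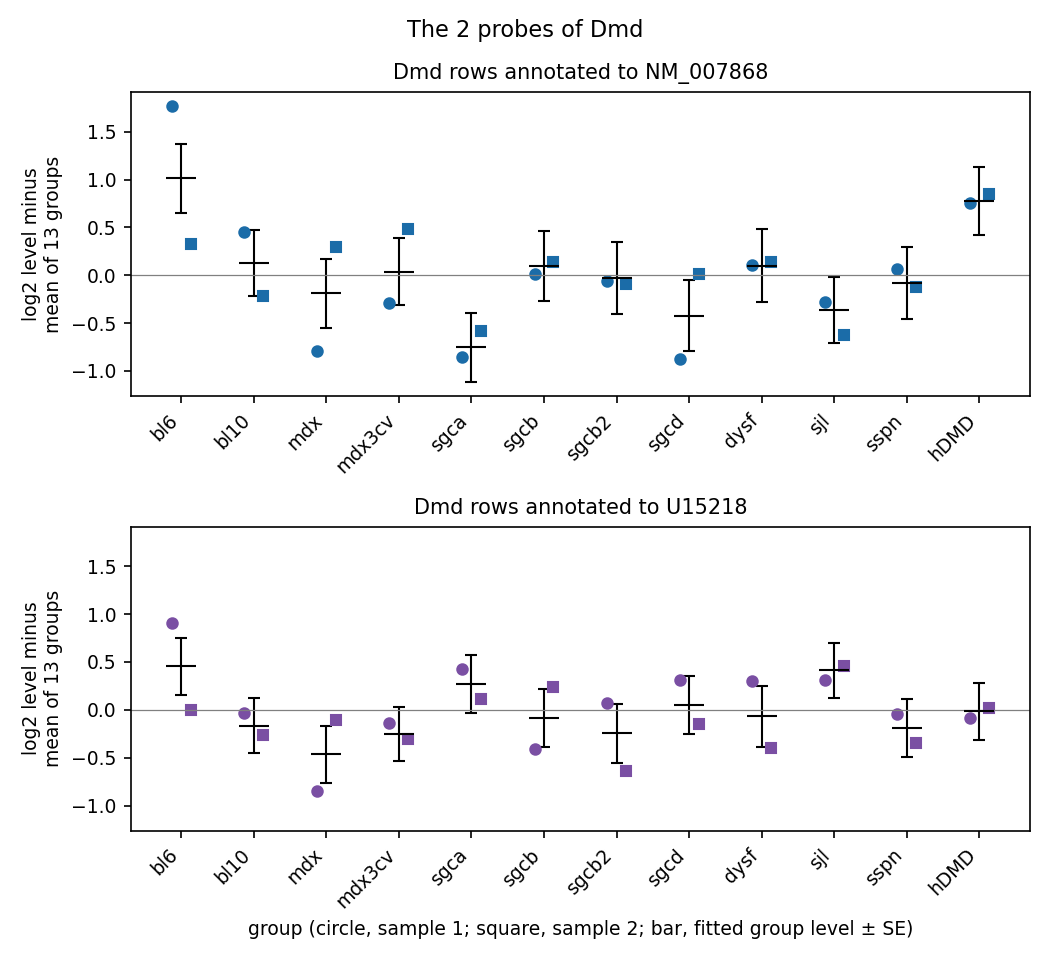
Level of Dmd (log2, minus the mean of 13 groups) in each sample of 12 groups from the rows annotated to NM_007868 (upper) and from those annotated to U15218 (lower). Circles are sample 1, squares sample 2, and bars the fitted group level ± SE. The upper panel has hDMD at 0.78 and sgca at -0.76, the lower has hDMD at -0.02 and sgca at 0.27.

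The 2 Dmd probes followed each other little, but no test of a difference between them passed: over the 18 comparisons the lowest adjusted p in limma's test was 0.0906. One was annotated to NM_007868 and the other to U15218. Over the 26 arrays their log2 ratios correlated with r = 0.095 and had the same sign on 10 arrays. Ratios of single arrays and rows are given with the dye term, the constant channel difference that the fit removes. It was 0.49 for the NM_007868 probe and -0.04 for the U15218 probe, which affects the count of signs. Over the 13 group levels r was 0.024. The duplicate rows of the U15218 probe correlated with each other with r = 0.283 only, which limits how closely that probe can follow any other. These points share the RNA samples of the loop, and no p is given.

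With the NM_007868 probe the levels were 1.77 and 0.33 in bl6, 0.76 and 0.85 in hDMD, -0.79 and 0.30 in mdx, -0.29 and 0.48 in mdx3cv, and -0.85 and -0.59 in sgca. Both hDMD samples lay above all dystrophin-deficient samples, and both sgca samples below all wild type ones. The 2 arrays of each sgca sample disagreed, with -1.50 and -1.23 from channel 1 but -0.20 and 0.06 from channel 2. The array that held hDMD sample 2 against mdx3cv sample 1 had a log2 ratio of 1.89 on this probe, with rows at 1.87 and 1.90. The array of hDMD sample 1 against dysf sample 2 had a ratio of 1.13. The array of bl10 sample 2 against mdx3cv sample 2 had a ratio of 0.40. These ratios still hold the dye term of 0.49 for this probe, and the last lies below it.

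With the U15218 probe the levels were 0.90 and -0.00 in bl6, -0.08 and 0.02 in hDMD, -0.85 and -0.10 in mdx, -0.13 and -0.30 in mdx3cv, and 0.43 and 0.11 in sgca. Here too both hDMD samples lay above all dystrophin-deficient ones, but narrowly, with -0.08 in hDMD sample 1 against -0.10 in mdx sample 2. As a group hDMD lay among the others, and both sgca samples lay above the mean of the 13 groups. On the array of mdx sample 1 against bl6 sample 1 the 2 rows of this probe were at -3.62 and -0.49, while the NM_007868 rows were at -1.26 and -1.16. On the array of bl6 sample 1 against sjl sample 2 it was the NM_007868 rows that disagreed, at 1.89 and 3.87, and the U15218 rows were at -0.03 and -0.36. Both arrays on which bl6 sample 1 was measured thus held 1 discordant pair of Dmd rows.

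The difference of mdx and mdx3cv from wild type was -0.64 ± 0.36 with the NM_007868 probe and -0.51 ± 0.29 with the U15218 probe. The difference between the probes there was -0.14 ± 0.43 (adjusted p = 0.91 in limma's test). In sgca against wild type they were -1.32 ± 0.43 (adjusted p = 0.0648 in limma's test) and 0.12 ± 0.36. The difference between the probes there was -1.45 ± 0.52, with an unadjusted p of 0.0115 and an adjusted p of 0.0906. In sjl it was -1.20 ± 0.53 (adjusted p = 0.458 in limma's test). For hDMD against mdx and mdx3cv, the probes gave 0.85 ± 0.46 and 0.34 ± 0.38, which differed by 0.51 ± 0.56 (adjusted p = 0.775 in limma's test).

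Utrn was not higher in mdx and mdx3cv than in wild type beyond the spread. Its level was -0.66 and -0.24 in mdx and -0.31 and 0.25 in mdx3cv, against 0.12 and -0.14 in bl6 and 0.02 and 0.20 in bl10. Both mdx samples were below all 4 wild type samples, and 1 mdx3cv sample was above them. The mean of mdx and mdx3cv differed from wild type by -0.31 ± 0.34 (SE, n = 4 against 4), with an adjusted p of 0.708 in limma's test. The interval ran from -1.01 to 0.39, so a rise above 1.31-fold lies outside it. With the ratio turned, that bound would be 2.02-fold. Over the fits that left out 1 sample the value ran from -0.56 to -0.09, keeping its sign. By line it was -0.51 ± 0.40 in mdx and -0.11 ± 0.42 in mdx3cv. These ratios may understate the change of a dim spot.

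In the 10 sarcoglycan-deficient samples Utrn ran from -0.53 to 1.01, with a median of 0.01, and their mean difference from wild type was -0.00 ± 0.31 (interval -0.65 to 0.65). The spread among these lines was wide. Utrn was 0.39 and 1.01 in sgcb, its highest level, and both samples lay above all wild type ones, with a difference of 0.63 ± 0.49 (adjusted p = 0.63 in limma's test). That difference was 1.26 without sgcb sample 1 and 0.24 without a sample of the line not reported here. In sgcb2 it was 0.05 and -0.33. In sgca it was -0.20 and -0.46, and in sgcd -0.53 and 0.07.

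The lowest Utrn level was in sjl, at -1.05 and -0.61, both below every wild type sample. The difference from wild type was -0.87 ± 0.41, with an unadjusted p of 0.0472 and an adjusted p of 0.507 in limma's test, and 0.245% of genes passing. The 2 rows of the probe disagreed on it: -1.48 with the first row and -0.24 with the second. One row stood at -4.43 on 1 array of sjl sample 1, 4.60 away from its duplicate. Over the fits that left out 1 sample the difference ran from -1.27 to -0.30. The other dysferlin-deficient line, dysf, had Utrn at 0.68 and 0.30, above all wild type samples, with a difference of 0.35 ± 0.51 (0.107% of genes passing). Utrn differed from wild type by 0.09 ± 0.50 in sspn and by -0.01 ± 0.47 in hDMD. In hDMD its levels were -0.08 and 0.21, within the range of the dystrophin-deficient samples, and in sspn 0.37 and 0.07.

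**Figure D3:**
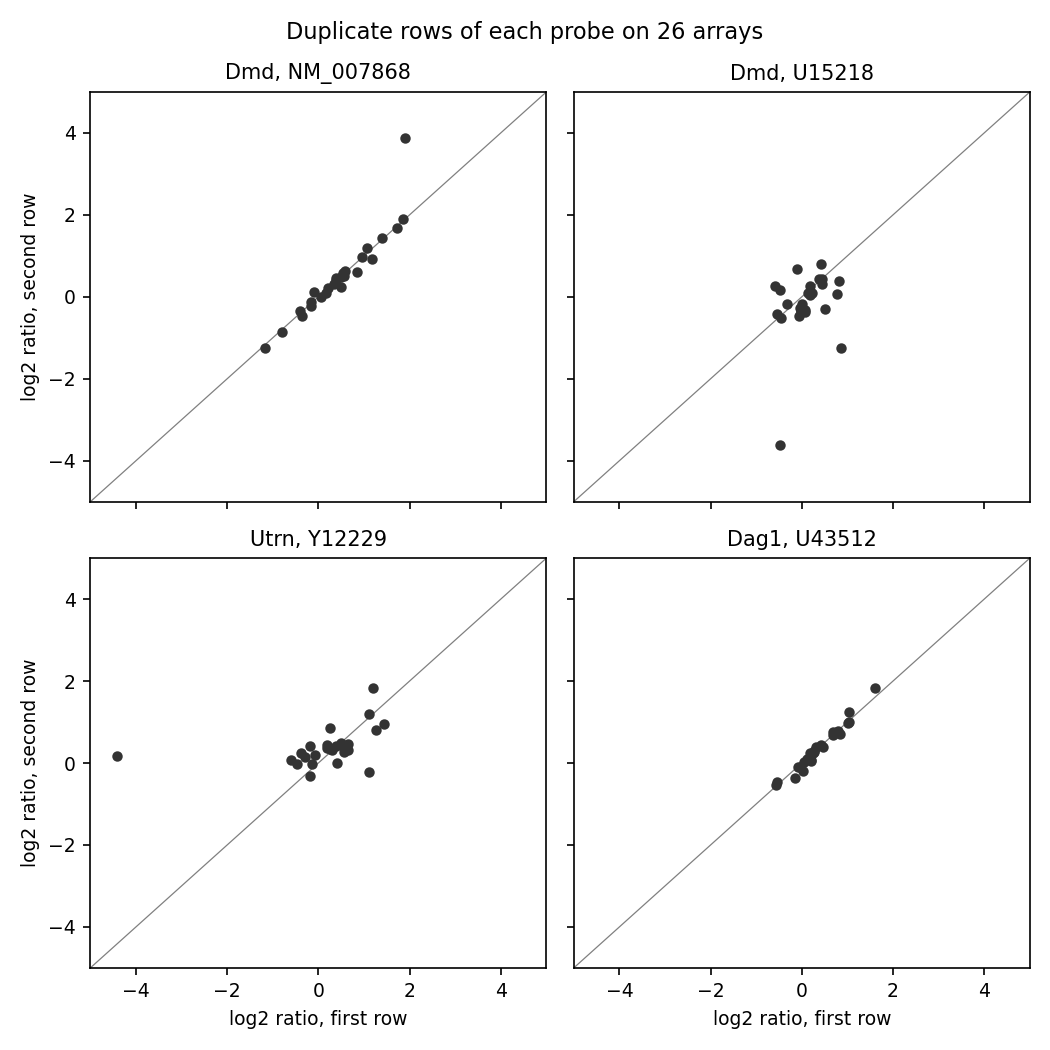
Log2 ratio of the first (x axis) and second (y axis) duplicate row of each probe on 26 arrays, with the line of equality. The rows of Dag1 (r = 0.985) and of the Dmd probe NM_007868 (r = 0.925) follow the line apart from 1 array of the latter, while those of U15218 (r = 0.283) and Utrn (r = 0.394) scatter, with single spots near -4.

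The 3 genes were not measured with the same precision. The duplicate rows of Dag1 differed with an SD of 0.07 and correlated with r = 0.985 over 26 arrays. Those of Utrn had an SD of 0.71 and r = 0.394. For Dmd the SD was 0.29 for the NM_007868 probe and 0.60 for the U15218 probe. After the fit the residual SD was 0.38 for Dmd, 0.56 for Utrn and 0.37 for Dag1, against a median of 0.49 over all genes.

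Dag1 showed no difference between the dystrophin-deficient lines and wild type beyond the spread. Its level was -0.17 and -0.10 in mdx and -0.33 and 0.22 in mdx3cv, against -0.19 and -0.48 in bl6 and 0.08 and 0.02 in bl10. The groups overlapped throughout. The difference was 0.06 ± 0.26 (SE, n = 4 against 4; adjusted p = 0.941 in limma's test), with an interval from -0.48 to 0.60. With each array centred on its median it was -0.001. In the sarcoglycan lines Dag1 ran from -0.37 to 1.13, with a median of -0.11, and differed from wild type by 0.16 ± 0.24.

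The highest Dag1 level was in sgcb, at 0.69 and 1.13, with no overlap with any sample of the other 11 groups shown. Against wild type the difference was 1.01 ± 0.38 (SE, n = 2 against 4), or 2.02-fold, with an interval from 0.22 to 1.81. The unadjusted p was 0.0145 and the adjusted p 0.345 in limma's test. The value ran from 0.78 to 1.42 over the fits that left out 1 sample and was 0.85 with arrays centred on their medians, where the median of all genes in the same comparison was 0.17 before centring. The related line sgcb2 had Dag1 at -0.07 and -0.06, a difference from wild type of 0.07 ± 0.33. On the array of sgcb sample 2 against hDMD sample 1 the Dag1 ratio was 1.72 with rows at 1.61 and 1.82, and the Utrn ratio was 1.52. Both ratios still hold the dye terms, 0.37 for Dag1 and 0.28 for Utrn.

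Dag1 came next in dysf, at 0.34 and 0.63, both above all wild type samples, with a difference of 0.59 ± 0.39 (adjusted p = 0.656 in limma's test). It differed from wild type by -0.05 ± 0.32 in sjl, by 0.27 ± 0.38 in sspn and by -0.01 ± 0.37 in hDMD. The levels in hDMD were -0.44 and 0.17, and those in sspn 0.30 and -0.04.

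**Figure D4:**
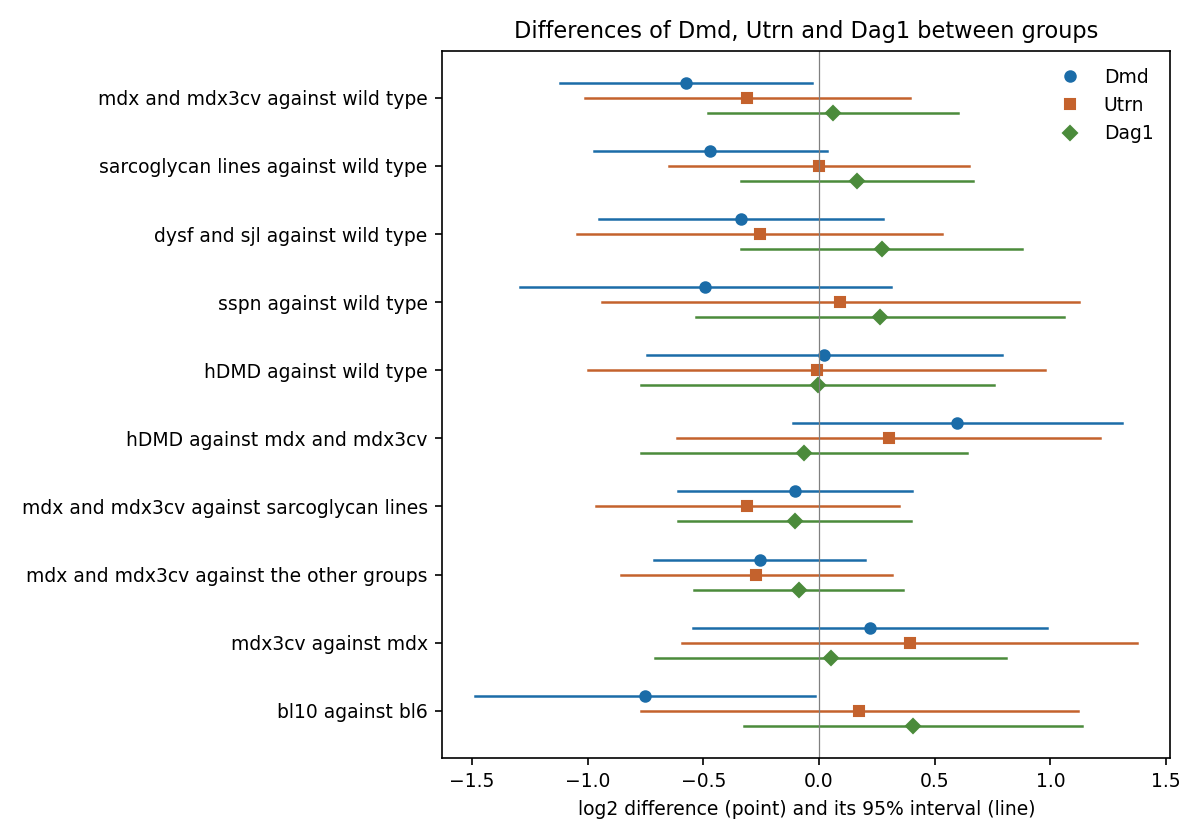
Log2 difference (point) and its 95% interval (line) of Dmd, Utrn and Dag1 in 10 comparisons. The interval of Dmd lies below 0 for mdx and mdx3cv against wild type (-1.12 to -0.03) and for bl10 against bl6 (-1.49 to -0.02), and all other intervals shown include 0.

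**Figure D5:**
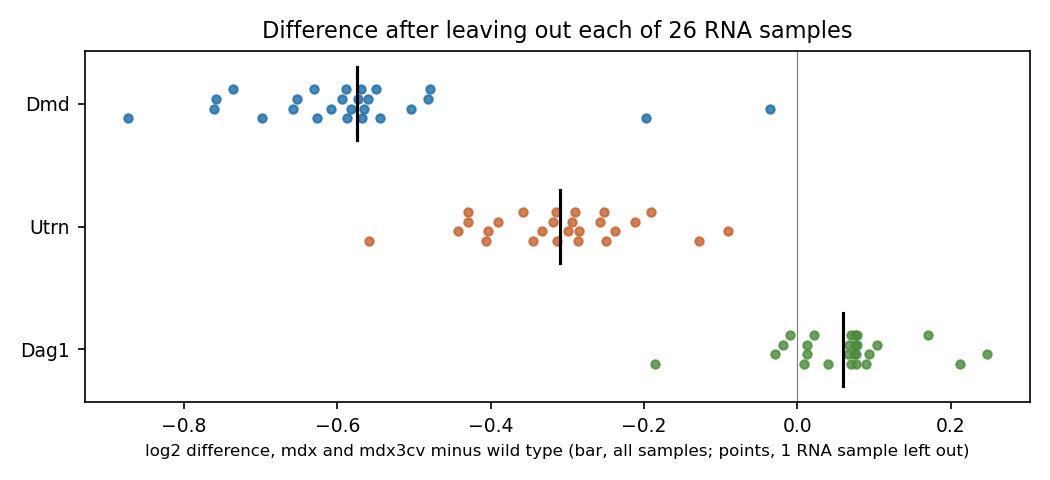
Log2 difference of each gene between mdx and mdx3cv and wild type after leaving out each of the 26 RNA samples in turn (points), with the value from all samples (bar). Dmd ran from -0.87 to -0.04, Utrn from -0.56 to -0.09 and Dag1 from -0.19 to 0.25.

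Over the 13 group levels Utrn and Dag1 correlated with r = 0.674, Dmd and Utrn with r = 0.208 and Dmd and Dag1 with r = -0.146. These 13 points share the loop of arrays and are given without a p. The 4 genes whose levels were most like those of Dmd were Olfr48 (r = 0.943), Cckbr (0.919), Ing3 (0.917) and Krtap9-1 (0.917). For Utrn they were Wnt5b (r = 0.890), Mgmt (0.880), Ercc1 (0.877) and Nr2f6 (0.874). For Dag1 they were Ebf2 (r = 0.938), Wbp11 (0.914), Pdgfb (0.910) and Ring1 (0.908). Among 6524 genes, 101 had r over 0.8 with Dmd, 15 with Utrn and 82 with Dag1. In Dmd, bl6 was at 0.73 (samples at 1.34 and 0.16) and hDMD at 0.38, with the other groups from -0.33 to 0.03. What the similar genes share with each of the 3 genes was not tested.

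Each of the 3 genes was set against 12 lists of genes, and only the larger r values are given. The mean level of 12 measured endothelial markers correlated with Dag1 over the 13 groups with r = 0.900. That mean was -0.44 in bl6, 0.64 in sgcb, 0.46 in dysf, 0.34 in sspn and -0.31 in hDMD. For 5 smooth muscle markers r with Dag1 was 0.779. For 22 other genes of the dystrophin complex r with Dag1 was 0.715 and for 12 mature fibre markers 0.611. With Utrn, r was 0.669 for smooth muscle, 0.573 for mature fibre and 0.552 for endothelial markers. For 12 regulators of the Utrn promoter r with Utrn was -0.604. The mean level of 13 macrophage markers correlated with Dmd with r = -0.682, that of 9 fibroblast markers with r = -0.735, that of 9 Schwann cell markers with r = -0.751 and that of 15 markers of regenerating fibres with r = -0.670. In bl6 and hDMD, the groups highest in Dmd, the means were -1.94 and -2.44 for macrophages and -0.79 and -0.68 for fibroblasts. They were -0.29 and -0.18 for Schwann cells and -0.73 and -0.74 for regenerating fibres. In sspn the macrophage mean was -2.16, with Dmd at -0.14. Schwann means of all groups lay from -0.29 to 0.14. The 2 bl6 samples had Dmd at 1.34 and 0.16, and no r was computed without bl6. The part of the marked cells in the levels of the 3 genes was not tested.

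The other genes of the dystrophin complex were measured on 22 of 27 listed members. In mdx and mdx3cv against wild type 1 of 22 rose and 0 fell, where 0.703% of all genes rose and 0.0917% fell. The median was 0.31 against 0.04 over all genes. With arrays scaled alike that member no longer passed (adjusted p = 0.129 in limma's test). It was Bgn, which encodes biglycan, a small matrix proteoglycan that binds dystroglycan and the sarcoglycans, and it rose by 1.69 ± 0.35 (adjusted p = 0.0279 in limma's test). Its adjusted p was above 0.05 without each of 8 of the 26 samples, at 0.598 without mdx sample 1, 0.38 without bl6 sample 1, 0.301 without mdx3cv sample 2, 0.25 without bl10 sample 2, 0.109 without mdx3cv sample 1, 0.0597 and 0.0533 without sgcd sample 2 and sample 1, and 0.0514 without sspn sample 1. Lama2, the laminin chain that alpha-dystroglycan binds in muscle, was at 0.96 ± 0.24 (adjusted p = 0.0664) and Krt19, a keratin that binds dystrophin at costameres, at 0.96 ± 0.41 (adjusted p = 0.276).

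In the sarcoglycan lines 3 of the 22 complex members rose and 0 fell, where 5.64% of all genes rose and 1.13% fell. Their median was 0.20 against 0.06 over all genes. Bgn was higher by 2.13 ± 0.33 (adjusted p = 0.00153 in limma's test), and it passed in all 26 fits without 1 sample. Actg1, a cytoskeletal actin, was higher by 2.02 ± 0.48 (adjusted p = 0.0147). Its call was lost without either sample of bl6, bl10 or sgcb2, without mdx sample 1 and without sgca sample 1, in 8 of 26 fits, with an adjusted p up to 0.141. Krt8, the keratin partner of Krt19, was higher by 0.96 ± 0.25 (adjusted p = 0.0282). Its call was lost in 13 of 26 fits, those without either sample of bl10, mdx, mdx3cv or sspn, without sample 1 of bl6 or sgca, or without sample 2 of sgcb, sgcb2 or sgcd, with an adjusted p up to 0.213. Against bl10 alone none of these 3 passed. In the dysferlin-deficient lines, sspn and hDMD, 0 of 22 passed in either direction, with medians of 0.20, 0.40 and 0.02.

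The enzymes that add the laminin-binding sugar chains to alpha-dystroglycan were nearly absent from the table, with 3 of 24 listed genes measured. None of Dpm1 and Dpm2, subunits of dolichol phosphate mannose synthase, and Gne, an enzyme of sialic acid synthesis, passed in any of the 5 comparisons of lines with wild type. Their log2 differences in mdx and mdx3cv were 0.01, 0.29 and 0.01, with SEs from 0.21 to 0.27.

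Of 17 listed regulators of the Utrn promoter 12 were measured, and 1 rose in mdx and mdx3cv, where 0.703% of all genes rose. That gene was Sp1, a zinc finger activator that binds GC boxes, by 1.83 ± 0.34 (adjusted p = 0.0208 in limma's test). The call was lost without mdx sample 1 (adjusted p = 0.301), bl6 sample 1 (0.203), mdx3cv sample 2 (0.192) or bl10 sample 2 (0.135), and with arrays scaled alike. Gabpa, a subunit of the Ets factor GABP, was at 0.97 ± 0.38 (adjusted p = 0.236) and Sp3 at 0.52 ± 0.25 (adjusted p = 0.345). The list's median was 0.03 against 0.04 over all genes. In the other 4 comparisons with wild type 0 of 12 passed.

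Of 16 listed genes of the neuromuscular junction, where utrophin sits, 12 were measured, and 1 rose in the sarcoglycan lines, where 5.64% of all genes rose. That was Chrnb1, the beta subunit of the muscle acetylcholine receptor, by 1.03 ± 0.26 (adjusted p = 0.0194 in limma's test). The call was lost in 7 of 26 fits, those without either sample of bl6 or bl10, without sample 1 of sgca or sgcb2, or without 1 sample of the line not reported here, with an adjusted p up to 0.154. The difference was 0.50 against bl10 alone. Of 12 listed relatives of dystrophin with spectrin repeats 7 were measured, and 1 rose in the sarcoglycan lines, beside the same 5.64%. A single member in each list is not read as a result about the list. The relative that rose was Macf1, a linker of actin and microtubules, by 1.14 ± 0.27 (adjusted p = 0.0161). Its call was lost in 7 of 26 fits, those without either bl10 sample, bl6 sample 2, or sample 1 of mdx, sgca, sgcb2 or sgcd, with an adjusted p up to 0.188. Both lists had 0 members passing in mdx and mdx3cv, the dysferlin-deficient lines, sspn and hDMD.

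Markers of other cells moved in the same comparisons. In mdx and mdx3cv 3 of 13 macrophage markers rose (median 2.31), with 2 of 15 markers of regenerating fibres and 1 of 9 fibroblast markers, where 0.703% of all genes rose. All 6 calls were lost with arrays scaled alike and without any 1 of mdx sample 1, mdx3cv sample 2, bl6 sample 1 or bl10 sample 2, and between 1 and 5 of them without each of 14 other samples.

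In the sarcoglycan lines, where 5.64% of all genes rose, 10 of 13 macrophage markers rose (median 2.80), with 6 of 15 markers of regenerating fibres, 4 of 9 of fibroblasts and 1 of 9 of Schwann cells. Clec7a, a macrophage receptor, rose by 4.21 ± 0.54 and Ptprc, the leukocyte antigen CD45, by 3.06 ± 0.51, and both passed in all 26 fits without 1 sample. Of the other 8 macrophage calls, 7 were lost in at least 1 such fit, most often Gpnmb and Tyrobp, in 19 of 26 each, with adjusted p-values up to 0.282 and 0.331 without sgca sample 1. Mest, an imprinted gene of growing muscle, rose by 3.38 ± 0.50 and H19, an imprinted non-coding RNA, by 3.25 ± 0.57, both in all 26 fits. Ncam1 of the same list lost its call in 13 of them. The fibroblast gene Fap, at 1.63 ± 0.31, passed in all 26, and Col5a1, at 1.01 ± 0.23, in 23, failing without sample 1 of bl10, sgca or sgcb2. Egr2 alone of the Schwann markers passed, at 1.17 ± 0.35 (adjusted p = 0.0472 in limma's test), and it lost the call in 21 of 26 fits, up to 0.246 without sgca sample 1. Of the 9 Schwann markers 4 were above 0, with a median of -0.02. Against bl10 alone, 14 of all genes passed in the sarcoglycan lines. None of 12 mature fibre, 12 endothelial and 5 smooth muscle markers passed in either comparison. In hDMD the macrophage median was -0.81 with 0 passing. What these cells contributed to the values of the 3 genes was not tested.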

How the data were processed

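The values used were those deposited by the authors, 1 ratio of the channels per spot and array. Per the labels, each array held 2 RNA samples, and scale, direction and normalization are not stated. The deposited values are ratios on a natural log scale: on 24 of 26 arrays the recurring steps left by whole-number intensities had a scale of 1.0 to 1.0001 natural log units, against 1.443 for log2, within a tolerance of 5%. The steps widen below 21.1 to 119.6 intensity units, as in a generalized log, which understates the change of dim spots. Values were divided by 0.6931 to give log2, with no other normalization. Array medians were -0.074 to 0.173, so the centring of the deposited values is unknown.

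Of 16416 rows, 13662 had 1 gene, 14 several and 2740 none. Rows of a gene were averaged. A generalized least squares fit with 1 dye and 12 group terms, the RNA sample being random (variance ratio 0.207), left 13 residual degrees of freedom. limma 3.58.1 in R 4.3.3 added 7.38. The fit was tested only on data simulated from its own model with normal errors, which cannot show whether that model suits these arrays. Nothing states that a group's 2 samples are from separate mice, so the spread between them may be technical. The p-values rest on each gene's residual spread after the fit. The share of the RNA sample in it is set by 1 variance ratio for all genes, not estimated for each. For Dmd the 2 samples had an SD of 0.83 in bl6 and 0.65 in mdx. The number of arrays limits the precision.

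The genes described are the 3 members in every comparison, passing members of 5 lists (complex, glycosylation, utrophin control, junction, relatives) and otherwise the 3 with the smallest p, 2 members of each cell type list in the sarcoglycan comparison, and the 4 genes most like each member. Members and lists were chosen with earlier results of these data known. No paired fit was the main one. Alternatives were centred or scaled arrays, array weights, no random effect, no dye term and single rows. Others were the replicate block, no variance moderation, 1 control strain and leaving out each sample, which dropped both of its arrays. The split of Dmd by probe was added after seeing the data.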

Additional observations from a re-analysis of the deposited data

How the results depend on the processing

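No value of the 3 genes passed the threshold under any of 600 values from other settings (lowest adjusted p = 0.0648 in limma’s test) or 1404 from fits without 1 sample (lowest 0.0596), while 53 and 127 of them changed sign. The cause of these changes was not tested. With arrays centred, values with a changed sign were -0.001 for Dag1 in mdx and mdx3cv against wild type, -0.14 for Dmd in hDMD against wild type, -0.021 for Dag1 in mdx against wild type. With arrays also scaled alike, values with a changed sign were -0.022 for Dag1 in mdx and mdx3cv against wild type, 0.014 for Dmd in mdx and mdx3cv against the sarcoglycan lines, -0.095 for Dag1 in mdx against wild type. With array weights, values with a changed sign were 0.011 for Utrn in the sarcoglycan lines against wild type, 0.12 for Dmd in mdx and mdx3cv against the sarcoglycan lines, 0.024 for Dmd and 0.039 for Utrn and 0.056 for Dag1 in mdx and mdx3cv against the other groups, -0.17 for Utrn in hDMD against mdx and mdx3cv, 0.065 for Utrn in mdx3cv against wild type, 0.13 for Dag1 in sgcd against wild type. Without the random effect, values with a changed sign were 0.071 for Utrn in the sarcoglycan lines against wild type, 0.06 for Utrn and 0.042 for Dag1 in hDMD against wild type, 0.028 for Dag1 in sgcd against wild type. The fit without the dye term, where the variance ratio was estimated at 0, gave these same values. With the first row of each gene, values with a changed sign were 0.18 for Dmd in mdx and mdx3cv against the sarcoglycan lines, 0.01 for Utrn and 0.014 for Dag1 in hDMD against wild type. With the last row of each gene, values with a changed sign were 0.038 for Utrn and -0.89 for Ncam1 (a marker of regenerating fibres, 1.11 with both rows) in the sarcoglycan lines against wild type, 0.007 for Dmd and 0.044 for Utrn in dysf and sjl against wild type, -0.58 for Dmd in hDMD against wild type, -0.064 for Utrn in bl10 against bl6, 0.026 for Dmd in sgca against wild type, 0.34 for Dmd in sjl against wild type. Against bl10 alone, values with a changed sign were -0.14 for Dag1 in mdx and mdx3cv against wild type, -0.04 for Dag1 in the sarcoglycan lines against wild type, 0.039 for Dmd in dysf and sjl against wild type, -0.17 for Dag1 in mdx against wild type, -0.12 for Dag1 in mdx3cv against wild type, 0.024 for Dmd in sgcb against wild type, -0.14 for Dag1 in sgcb2 against wild type, 0.034 for Dmd in dysf against wild type, 0.043 for Dmd in sjl against wild type. Against bl6 alone, values with a changed sign were 0.087 for Utrn in the sarcoglycan lines against wild type, -0.35 for Dmd and 0.078 for Utrn and 0.20 for Dag1 in hDMD against wild type, 0.057 for Dag1 in sgca against wild type, 0.17 for Dag1 in sgcd against wild type, 0.15 for Dag1 in sjl against wild type. With the NM_007868 probe alone, values with a changed sign were 0.21 for Dmd in mdx and mdx3cv against the sarcoglycan lines. With the U15218 probe alone, values with a changed sign were 0.027 for Dmd in dysf and sjl against wild type, -0.16 for Dmd in hDMD against wild type, 0.12 for Dmd in sgca against wild type, 0.27 for Dmd in sjl against wild type. With the replicate block no call of the 3 genes changed, and Dmd was at -0.58 in mdx and mdx3cv against wild type. Deviations of same-numbered samples had a median correlation of 0.009 over 78 pairs of groups (-0.672 to 0.714, with 33 over 0.1), so the numbers were not taken to pair samples.

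Of all genes, 52 passed in mdx and mdx3cv against wild type. That count was 0 with scaled arrays, 185 with array weights, 81 without the random effect, 6 without the dye term, 33 and 31 with the first and the last row, 5 without moderation, 2 against bl10 and 172 against bl6. In the sarcoglycan lines 443 passed, and the count was 204 with scaled arrays, 769 with array weights, 267 without the dye term, 289 with the first row, 173 without moderation and 14 against bl10. Leaving out 1 sample at a time, these counts ran from 0 to 454 and from 133 to 639. Differences that changed sign in such fits ran, in mdx and mdx3cv against wild type, from -0.19 to 0.25 for Dag1, in the sarcoglycan lines against wild type, from -0.16 to 0.15 for Utrn, in mdx and mdx3cv against the sarcoglycan lines, from -0.55 to 0.088 for Dmd and -0.25 to 0.15 for Dag1. They ran, in mdx and mdx3cv against the other groups, from -0.63 to 0.004 for Dmd and -0.48 to 0.019 for Utrn and -0.21 to 0.20 for Dag1, in dysf and sjl against wild type, from -0.53 to 0.14 for Dmd, in sspn against wild type, from -0.39 to 0.46 for Utrn and -0.03 to 0.54 for Dag1. Ranges were, in hDMD against wild type, from -0.18 to 0.50 for Dmd and -0.45 to 0.44 for Utrn and -0.40 to 0.33 for Dag1, in hDMD against mdx and mdx3cv, from -0.32 to 0.63 for Utrn and -0.65 to 0.25 for Dag1, in mdx3cv against mdx, from -0.35 to 0.66 for Dmd and -0.24 to 0.72 for Utrn and -0.57 to 0.35 for Dag1. They ran, in bl10 against bl6, from -0.15 to 0.34 for Utrn, in mdx against wild type, from -0.055 to 0.12 for Dag1, in mdx3cv against wild type, from -0.70 to 0.021 for Dmd and -0.68 to 0.27 for Utrn and -0.47 to 0.42 for Dag1. Ranges were, in sgca against wild type, from -0.70 to 0.028 for Utrn and -0.34 to 0.17 for Dag1, in sgcb against wild type, from -0.59 to 0.086 for Dmd, in sgcb2 against wild type, from -0.60 to 0.097 for Utrn and -0.061 to 0.23 for Dag1. They ran, in sgcd against wild type, from -0.86 to 0.14 for Utrn and -0.31 to 0.24 for Dag1, in dysf against wild type, from -0.61 to 0.10 for Dmd and -0.22 to 0.78 for Utrn, in sjl against wild type, from -0.50 to 0.18 for Dmd and -0.34 to 0.29 for Dag1.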
